A study of Homo sapiens with 8 samples.

Results

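The mitochondrial ribosome translates the few proteins that the mitochondrial genome encodes, all of them subunits of the respiratory chain or of ATP synthase. Its ribosomal RNAs come from mitochondrial DNA, but all of its proteins are encoded in the nucleus, made in the cytosol and imported. Some descend from bacterial ribosomal proteins and others are found only in mitochondria. Tetracyclines such as doxycycline (Dox) bind bacterial ribosomes and also slow mitochondrial translation, which matters here because Dox was the inducer of an shRNA in 1 of the experiments. The genes described are those whose symbol is MRPL or MRPS followed by a number and, for some, a letter from A to C, so that pseudogenes were left out. The rule found 78 genes of the 44261 symbols listed in either of 2 count tables: 78 of 42125 in the TFAP2C siRNA experiment and 77 of 23393 in the Dox experiment, where MRPL58 is listed as ICT1. They lie on 21 chromosomes. By background knowledge, 51 encode proteins of the large subunit, 26 of the small subunit, and 1, MRPS36, a subunit of the 2-oxoglutarate dehydrogenase complex that is now named KGD4. MRPS30 and MRPS18A are counted with the large subunit, where their proteins are found.

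mRNA-seq was available for 8 libraries of HCT116, a human line from a colorectal carcinoma, in 4 groups of 2 replicates. All 8 came from cells that stably carry a Tet-On shRNA against SAE2, the protein that the UBA2 gene encodes, which is a subunit of the enzyme that activates SUMO. Cells with control siRNA were compared with cells given TFAP2C siRNA, each after 48 hrs, and cells kept in DMSO for 5 days were compared with cells kept in Dox at 1 μg/mL for 5 days, which the labels name SAE2 knockdown. No group received Dox without the inducible shRNA, so the antibiotic and the shRNA cannot be told apart in any value that uses the cells kept in Dox. Whether the line is a clone or a pool, and whether replicates were separate cultures, is not given in the sources used here, so p-values measure the spread between these samples, which may be technical.

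The libraries held 20785035 to 24465109 counts in the TFAP2C siRNA experiment and 18213739 to 20607813 in the Dox experiment. TFAP2C, a transcription factor of the AP-2 family, fell in the cells given its siRNA from 19.7 ± 1.13 to 3.88 ± 0.591 CPM (counts scaled to a common library size, mean ± SD, n = 2; log2 fold change -2.34, adjusted p = 7.67e-06, quasi-likelihood test of edgeR with Benjamini-Hochberg adjustment). UBA2 mRNA was 153.9 CPM in DMSO and 150.0 in Dox (log2 fold change -0.04, adjusted p = 0.766, edgeR), so the targeted gene does not bear out the label of the libraries labelled UBA2 KD. They are called the Dox libraries here, and every direction in that experiment is a difference of Dox from DMSO. The epithelial markers EPCAM, KRT8, KRT18, KRT19, CDH1 and CDX2 were detected in both experiments, whereas CDH17, VIL1 and LGR5 were at or near 0. Among markers of leukocytes, endothelium and fibroblasts, COL1A1 stood apart with 46.4 and 18.7 CPM in the respective controls. The replicates of TFAP2C siRNA differed more than those of other groups, with a chi-square per degree of freedom of 9.09 over 14772 genes, against 2.55 to 2.76 within the others. Results that rest on either of these libraries are given with and without it.

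Together the 78 genes took 0.381% and 0.375% of the counts with control siRNA and 0.402% and 0.385% with TFAP2C siRNA. In the Dox experiment the 77 genes listed, without MRPL58, took 0.551% and 0.557% of the counts in DMSO and 0.535% and 0.545% in Dox. Both TFAP2C siRNA libraries were therefore above both of their controls, and both Dox libraries below theirs, by small margins. The shares are not compared between experiments, since the tables list different genes and only that of the TFAP2C siRNA experiment includes the mitochondrial genome, which took 9.79% to 9.96% of its counts. The median gene of the family had 997 counts per library in the TFAP2C siRNA experiment and 1223 in the Dox experiment, and 63 and 66 of the genes had at least 500 counts in every library.

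Mitochondrial ribosomal protein genes were expressed above most genes and below the proteins of the cytosolic ribosome. Levels are compared between genes only per length, as CPM divided by gene length in kilobases (RPKM) in the control libraries, with the gene lengths that each table gives. In control siRNA the median of the 77 family genes tested was 17.8 RPKM, against 4.89 for all 14991 genes tested and 109.4 for 78 cytosolic ribosomal proteins. In DMSO it was 45.6 RPKM over 75 genes, against 8.88 for all 13381 genes and 208.4 for 77 cytosolic ribosomal proteins. The subunits lay close together, with medians of 18.0 (large) and 15.9 RPKM (small) in control siRNA and 46.5 and 45.6 in DMSO. The range over the 77 family genes tested was 0.263 to 86.7 RPKM in control siRNA.

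MRPS34, a small subunit protein found only in mitochondria, was highest in control siRNA with 86.7 RPKM, and MRPL51, a large subunit protein of the same kind, was highest in DMSO with 152.9. MRPS34 was next in DMSO with 118.5 RPKM. The other leading genes in control siRNA were MRPL41 (84.4), MRPL51 (54.4), MRPL18 (52.2), MRPS26 (45.9) and MRPL3 (43.6). In DMSO they were MRPL3 (106.2), MRPL18 (104.1), MRPL37 (101.7) and MRPS15 (101.5). MRPL51, MRPS34, MRPL18 and MRPL3 were thus among the 6 highest in both tables. Across the 75 genes tested in both, the log2 RPKM of the tables had a Pearson r of 0.69 and a Spearman rho of 0.649, which describes genes of a shared cell line measured with different gene lengths.

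The 3 lowest genes in DMSO were MRPL53, MRPS24 and MRPL38. MRPL53 had 0 counts in all 4 libraries of the Dox experiment, where 3 counts would be 0.144 to 0.167 CPM, and 0.2005 RPKM in control siRNA. MRPS24 had 1, 1, 1 and 0 counts in the Dox experiment and 0.263 RPKM in control siRNA. MRPL38 had 18 and 22 counts in DMSO and 24 and 22 in Dox, or 0.465 RPKM in DMSO and 2.18 in control siRNA. In GENCODE (GRCh37), other genes on the same strand cover 99.2% of the exon bases of the MANE Select transcript of MRPL53, 94.3% of that of MRPL38 and 90.9% of that of MRPS24, the last through the readthrough gene URGCP-MRPS24, which had 0 counts in all 8 libraries. Over all exons of the gene the covered share was lower, at 72.8% for MRPL53, 41.1% for MRPL38 and 23.2% for MRPS24, and 0 of the 78 genes were over 90%. A high covered share in GENCODE did not always go with a low level, but the methods name RefSeq genes for the counting. Whether each covering gene was among those counted was not checked. MRPS5, the remaining gene with over 90% of its MANE Select transcript covered (97.1%, and 23.3% over all exons), was measured at 29.9 RPKM in DMSO. Of the 4 others over 50%, MRPL12 (69.5%) had 61.2 RPKM, MRPL2 (52.1%) 21.3, MRPL46 (73.4%) 5.83 and MRPS28 (56.2%) 5.31. MRPS14, which completes the 6 lowest in DMSO with 9.82 RPKM, shares no exon base of this transcript. MRPS17, which completes the 6 lowest in control siRNA with 2.36 RPKM, shares 29.4%, but had 45.6 RPKM in DMSO. By the MANE Select transcripts of the 78 genes, 47 share no exon base, 15 share some with a gene on the same strand and 22 with a gene on the other strand. How reads in shared exons were assigned is not stated, so the values of MRPL53, MRPS24, MRPL38, MRPL46 and MRPS28 are uncertain. The part that sharing plays in their level was not tested. MRPL53 was not tested in either comparison, nor MRPS24 in that of Dox, since their counts were too low.

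**Figure D1:**
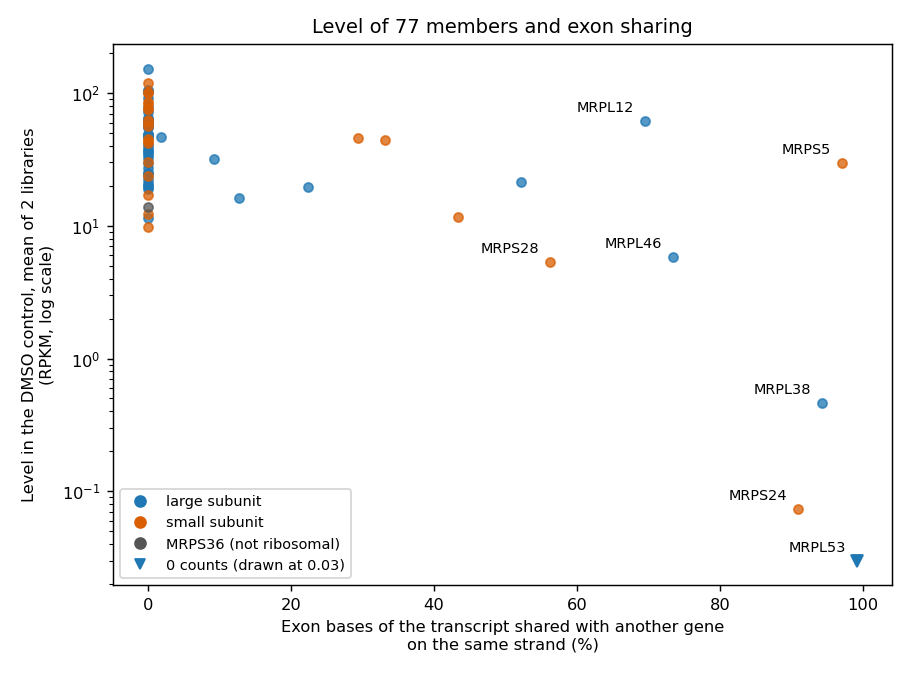
The level of 77 genes in DMSO (mean RPKM of 2 libraries, log scale) is plotted against the percent of exon bases of the MANE Select transcript that another gene on the same strand covers, with large and small subunit genes and MRPS36 in separate colours. MRPL53 had 0 counts and is drawn as a triangle at an arbitrary place below the others. MRPL53, MRPS24 and MRPL38, the 3 lowest, lie above 90%, whereas MRPS5, at 97.1%, was measured at 29.9 RPKM and MRPL12, at 69.5%, at 61.2.

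Promoters of nuclear genes for mitochondrial proteins are known for sites of NRF1, ETS factors such as GABPA, and YY1. RefSeq promoters (GRCh38.p14, 250 bases before to 50 after the start) matched 69 of the 78 genes. The letters CCGGAAG, the core of an ETS site, stood on either strand in 28 of 69 (40.6%), against 10.6% of all 27305 promoters and 18.3% of the 10905 promoters of genes tested in either comparison. The letters ATGGCGG, the core of a YY1 site, stood in 34.8%, against 5.68% and 9.98%. Most of these matches in the family were on the strand of the gene and began at base 10 to 39 of the transcript. The letters open with ATG, and whether they are start codons was not checked. The NRF1 core GCATGCG stood in 10.1%, against 4.04% and 6.15%. At least 1 of these stood in 46 of 69 (66.7%), against 17.9% of all promoters and 3269 of the 10905 of genes tested, and no matches of different motifs overlapped. A TATAAA box stood in 2.9% of the family, against 12.1% of all promoters and 5.68% of those of genes tested, CCAAT in 31.9%, against 35.6% and 36.1%, and the E box CACGTG in 13.0%, against 7.28% and 9.71%. Median GC content was 60.0% in the family and 65.3% in the promoters of genes tested. Matches of letters are a description and were not shown to be bound.

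The promoters of the 3 genes that passed the test in Dox, MRPS10, MRPL24 and MRPL49, are shown from 170 bases before to 30 after the RefSeq start, to set the regions of the genes that moved side by side. They lie at chr6:42217832-42218031 (minus strand), chr1:156741059-156741258 (minus strand) and chr11:65122013-65122212 (plus strand) of GRCh38.p14. Capitals mark the ETS and the YY1 letters, which only the promoter of MRPS10 holds among these 3.
MRPS10: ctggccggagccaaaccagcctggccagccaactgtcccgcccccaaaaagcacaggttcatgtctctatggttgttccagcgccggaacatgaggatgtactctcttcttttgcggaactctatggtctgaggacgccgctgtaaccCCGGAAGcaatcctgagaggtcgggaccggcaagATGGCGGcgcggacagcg
MRPL24: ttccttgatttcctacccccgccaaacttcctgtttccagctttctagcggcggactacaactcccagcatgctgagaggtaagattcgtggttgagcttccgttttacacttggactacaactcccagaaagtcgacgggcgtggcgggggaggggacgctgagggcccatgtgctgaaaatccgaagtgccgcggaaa
MRPL49: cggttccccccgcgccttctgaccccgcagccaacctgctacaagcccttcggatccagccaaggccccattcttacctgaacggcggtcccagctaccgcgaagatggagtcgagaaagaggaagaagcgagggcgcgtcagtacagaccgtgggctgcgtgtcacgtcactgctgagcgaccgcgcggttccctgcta

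Most of the family stood near its DMSO level in Dox: of 75 genes tested, MRPS10 and MRPL24 rose, MRPL49 fell, and 72 did not pass the test at an adjusted p of 0.05. Those 3 are 4% of the family, against 9.98% of all 13381 genes tested that passed in either direction (5.52% higher and 4.47% lower). The family's median log2 fold change was -0.01, where that of all genes was -0.00042, and 31 of 75 genes lay above 0. At an unadjusted p under 0.05 there were 9 of the 75 genes, against 22.7% of all genes.

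MRPS10 encodes the mitochondrial counterpart of bacterial S10, a protein of the head of the small subunit, and lies at chr6:42174539-42185633 (hg19, minus strand). It had 64.9 and 64.8 CPM in DMSO and 78.6 and 83.7 in Dox. Both Dox libraries exceeded both DMSO libraries, by more than the replicates differed. The log2 fold change was 0.32 (SE 0.0619; adjusted p = 0.000406, edgeR), a rise of 25.2%. Leaving out any library kept the adjusted p at or below 0.00421. In such a fit, here and below, the lone library of a group is assumed to vary like the other group, whose pair alone gives the spread. The same gene had 39.0 and 39.5 CPM with control siRNA and 44.4 in both TFAP2C siRNA libraries, a log2 fold change of 0.18 that did not pass (adjusted p = 0.379, edgeR).

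MRPL24 encodes the counterpart of bacterial L24, which binds ribosomal RNA early in assembly of the large subunit, and lies at chr1:156707094-156710923 (hg19, minus strand). It had 73.6 and 71.9 CPM in DMSO and 88.5 and 84.8 in Dox, again without overlap. Its log2 fold change was 0.25 (SE 0.0602; adjusted p = 0.0047, edgeR), a rise of 19.1%. Without DMSO replicate 2 the adjusted p was 0.0582, so this call rests on that library. With TFAP2C siRNA it went from 47.3 and 48.4 to 60.5 and 54.6 CPM, the highest fold change of the family there (log2 0.27, SE 0.0815, adjusted p = 0.202, edgeR), but it did not pass.

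MRPL49 encodes a large subunit protein without a bacterial counterpart and lies at chr11:64889655-64894841 (hg19, plus strand). It had 124.1 and 113.4 CPM in DMSO, the widest gap between control replicates of the 3, and 100.3 and 101.8 in Dox. The log2 fold change was -0.23 (SE 0.0583; adjusted p = 0.00746, edgeR), a fall of 14.9%. Without DMSO replicate 1, the higher of the pair, it was -0.17 with an adjusted p of 0.192 (edgeR), and in a fit of all 8 libraries the adjusted p was 0.107. Of the exon bases of its MANE Select transcript, 9.72% are shared with SYVN1 on the other strand, whereas MRPS10 and MRPL24 share none. With TFAP2C siRNA it had 96.7 and 81.5 CPM, against 79.4 and 82.9 with control siRNA, so those groups overlapped.

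**Figure D2:**
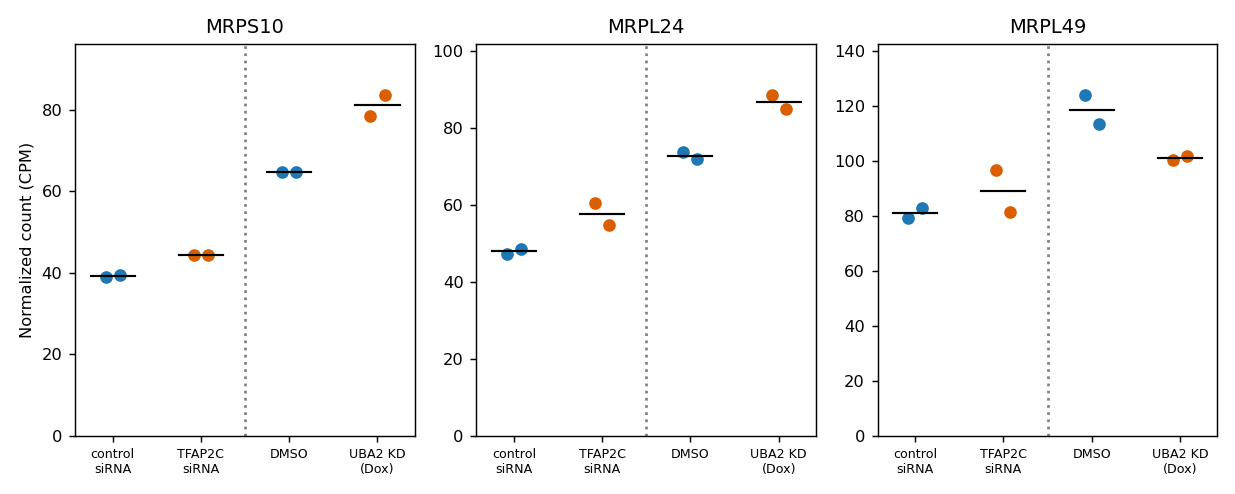
Normalized counts (CPM) of MRPS10, MRPL24 and MRPL49 are plotted for each of the 8 libraries, with a bar at the mean of 2 libraries and a dotted line between the experiments, which were scaled separately. The Dox libraries lie above both DMSO libraries for MRPS10 and MRPL24 and below them for MRPL49.

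Other genes with high or low estimates did not pass the test. MRPL38 had the second highest log2 fold change (0.31), above that of MRPL24, but on the few counts given above and with an SE of 0.32 and an adjusted p of 0.626 (edgeR). MRPS16, a small subunit protein with a bacterial counterpart, followed with 0.13, MRPS33, a small subunit protein found only in mitochondria, with 0.13 and MRPS30 with 0.13. Below 0 stood MRPS28 (-0.23), MRPL27 (-0.17), MRPL14 (-0.16), MRPL32 (-0.16) and MRPL44 (-0.16). MRPL27 and MRPL14 are counterparts of bacterial L27, which lies near the peptidyl transferase centre, and L14, which contacts the small subunit. MRPL27 came nearest to the threshold. It had 60.5 and 61.5 CPM in DMSO and 54.0 and 54.7 in Dox, without overlap and with an adjusted p of 0.104 (edgeR). When libraries were scaled by size alone, it passed beside MRPL49, so that 2 genes rose and 2 fell.

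Both subunits had medians near 0. In Dox, 20 of 49 large subunit genes lay above 0 (median log2 fold change -0.01) and 10 of 25 small subunit genes did (median -0.05). Genes with a bacterial counterpart had medians of -0.01 (large) and -0.07 (small), and those found only in mitochondria had -0.00105 and -0.03. Both Dox libraries exceeded both DMSO libraries in 12 of 75 genes and were under both in 25, where 25.5% and 25.8% of all genes tested did so. The median SE of a log2 fold change was 0.0633. For 70 of 75 genes the 95% interval, which covers the spread of these 2 replicates a group, stayed within a log2 fold change of 0.322 in size. A log2 fold change of 0.322 is a rise of 25%. The other 5 were MRPS10, MRPL24 and MRPL49 and the thinly counted MRPL38 and MRPS28. Estimates of 66 genes were within 10% of DMSO, 3 were above and 6 below.

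**Figure D3:**
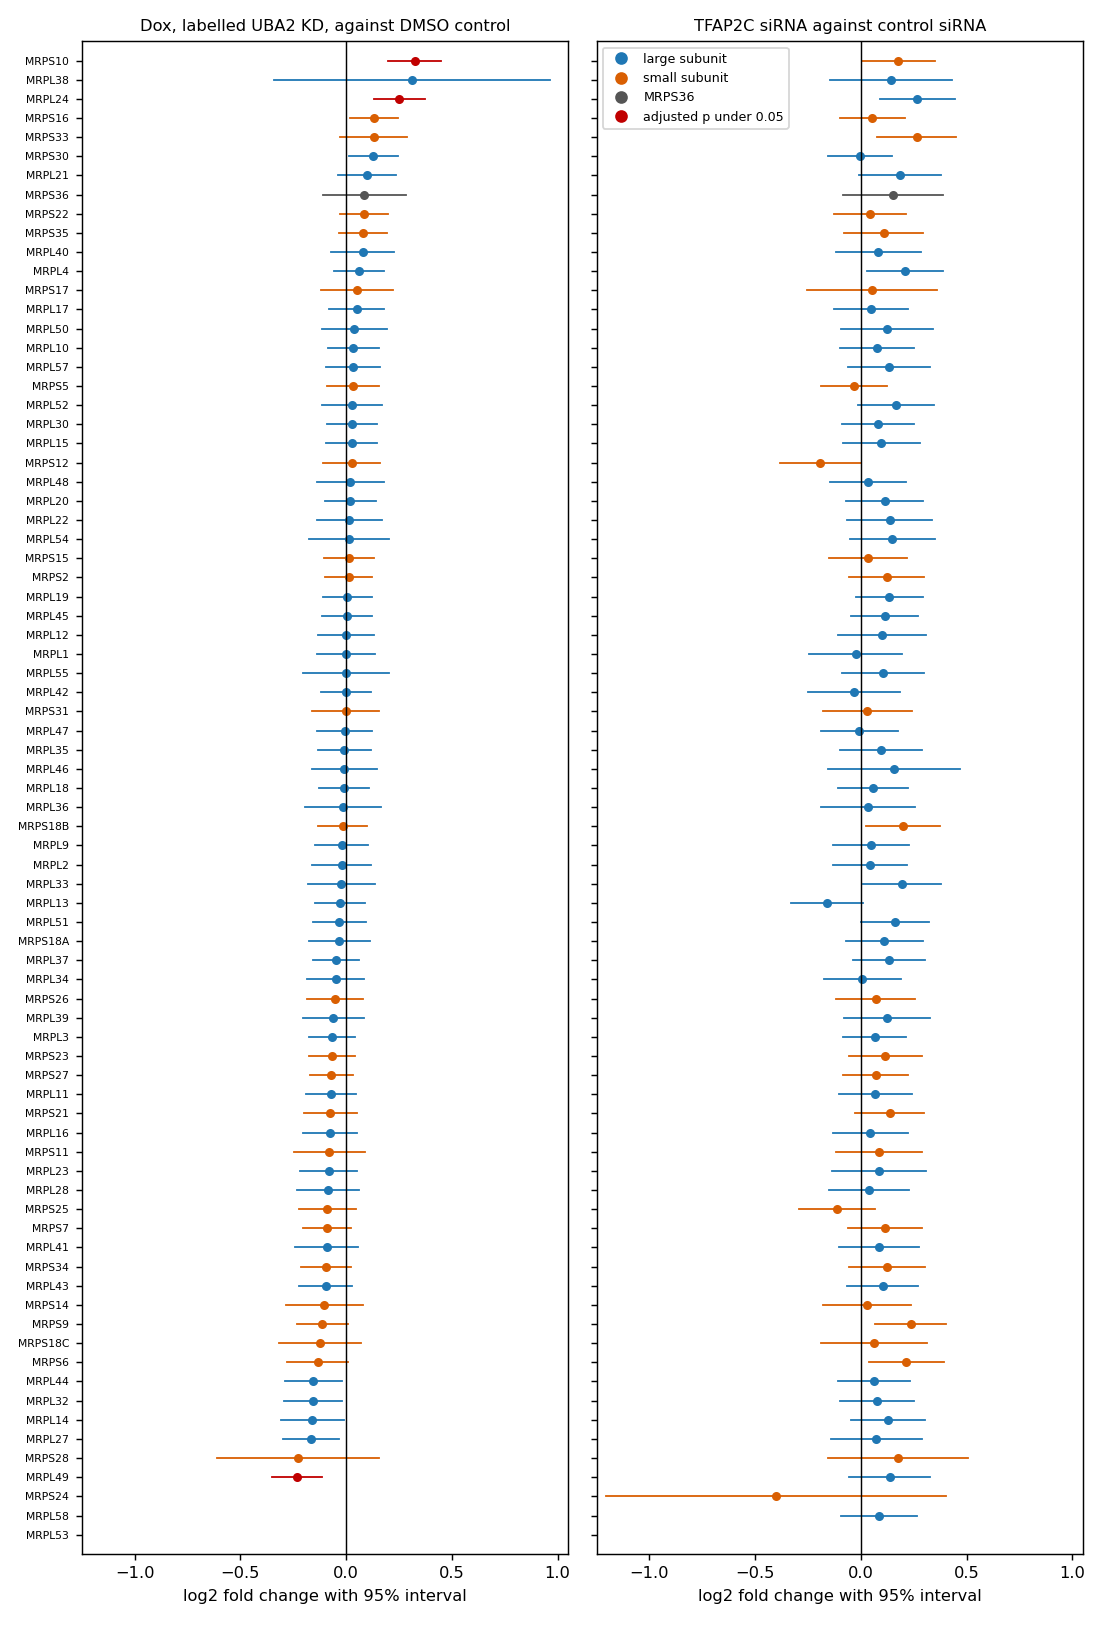
Log2 fold changes with 95% intervals are plotted for each gene, in the order of the Dox experiment, with Dox against DMSO on the left and TFAP2C siRNA against control siRNA on the right. Large and small subunit genes and MRPS36 have separate colours, and genes with an adjusted p under 0.05 are red. There are 3 red points on the left and 0 on the right, where 68 of 77 points lie above 0. Genes with no point were not tested.

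With TFAP2C siRNA no gene of the family passed the test, but most estimates lay a little above 0. The quasi-likelihood test of edgeR called 0 of 77 genes, against 0.74% of all 14991 genes tested (0.26% higher and 0.48% lower), and DESeq2 also called 0. At an unadjusted p under 0.05 there were 9 genes with edgeR (11.7%, against 12.6% of all genes) and 5 with DESeq2. The median log2 fold change was 0.09 and 68 of 77 genes lay above 0, where all genes had a median of -0.00382 and 49.1% above 0. Both treated libraries exceeded both controls in 38 of 77 genes and were under both in 3, where each was so for 22.4% of all genes.

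The size of this shift differed between the replicates. Against the mean of the controls, the median gene of the family stood 0.13 higher on the log2 scale in TFAP2C siRNA replicate 1, with 67 of 77 genes above 0, and 0.04 higher in replicate 2, with 56 above. The 2 treated replicates differed by a median of 0.09, as much as the shift, while the control replicates differed by 0.01. Without TFAP2C siRNA replicate 1 the median was 0.04 and 1 gene, MRPS12, was called lower (log2 fold change -0.27, adjusted p = 0.0384, edgeR). Without replicate 2 the median was 0.135, 16 genes were called higher and 1, MRPL42, lower. That fit, with its spread from the control pair alone, also called 2825 of all genes, against 111 with both replicates. Other gene groups had medians of like size: 0.10 for 78 cytosolic ribosomal proteins, of which 1 rose, and 0.09 for 23 transcripts of the mitochondrial genome, of which 0 passed (1 at an unadjusted p under 0.05). Their part in the shift was not tested.

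**Figure D4:**
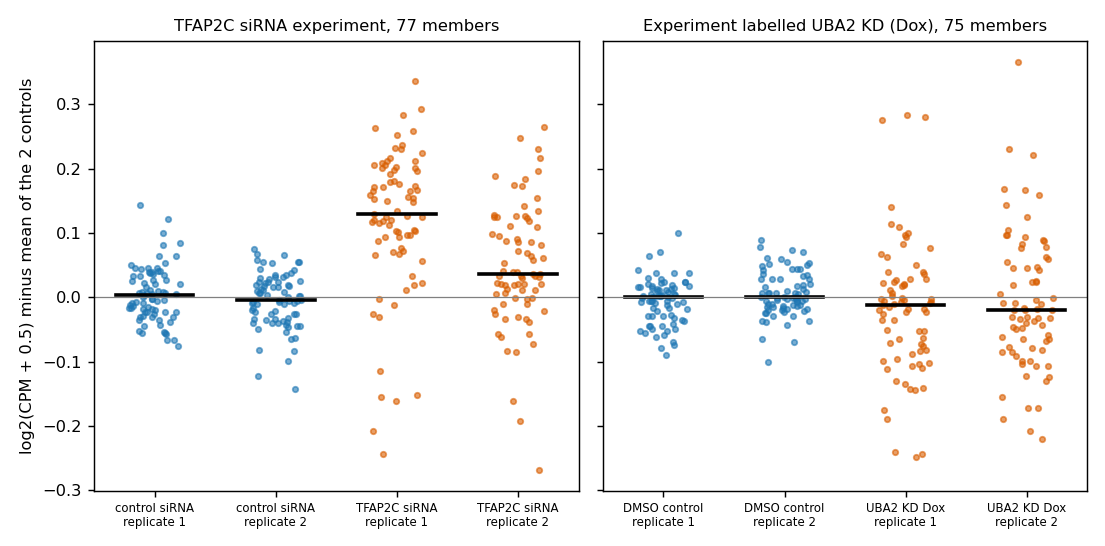
For each tested gene, log2(CPM + 0.5) minus the mean of the 2 controls is plotted by library, with a bar at the median over 77 genes on the left and 75 on the right. Control points mirror each other because the pair is centred on its own mean. The bar lies at 0.13 in TFAP2C siRNA replicate 1 and at 0.04 in replicate 2, and at -0.01 and -0.02 in the Dox replicates.

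The highest estimates after MRPL24 belonged to the small subunit genes MRPS33, MRPS9 and MRPS6. MRPS33 had 27.4 and 26.1 CPM with control siRNA and 32.1 and 32.2 with TFAP2C siRNA (log2 fold change 0.26, adjusted p = 0.224, edgeR). MRPS9, the counterpart of bacterial S9, had 42.5 and 43.0 CPM and then 50.5 and 50.2 (log2 fold change 0.24, adjusted p = 0.229, edgeR). In both the groups were apart and the treated replicates close together. MRPS6 (0.215), MRPL4 (0.21), whose bacterial counterpart lines the exit tunnel, and MRPS18B (0.20) followed. At the other end, MRPS12, the counterpart of the decoding centre protein S12, had 42.7 and 46.0 CPM and then 40.9 and 36.7 (log2 fold change -0.19, adjusted p = 0.397, edgeR). MRPL13 stood at -0.16, MRPS25 at -0.11, MRPL42 at -0.03 and MRPS5 at -0.03. MRPS24 had the lowest estimate (-0.40), on 17 and 14 counts with control siRNA and 12 in both TFAP2C siRNA libraries. By subunit, 45 of 50 large subunit genes lay above 0 (median 0.09) and 22 of 26 small subunit genes did (median 0.08).

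Precision was lower than in the Dox experiment. The biological coefficient of variation that edgeR estimated was 6.28%, against 3.56% with Dox. The median SE was 0.0833. The 95% interval stayed within a log2 fold change of 0.322 in size for 53 of 77 genes and reached past it for 24. Estimates of 58 genes were within 10% of the control, 16 were above and 3 below.

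No gene of the family passed a test of the difference between the comparisons. The fit of all 8 libraries compared the log2 fold change with Dox with that with TFAP2C siRNA, and edgeR called 0 of 76 genes (5 at an unadjusted p under 0.05), against 2.37% of 13179 genes tested (1.47% higher and 0.903% lower). DESeq2 also called 0, with 3 at an unadjusted p under 0.05. The median difference was -0.10 (Dox minus TFAP2C siRNA) and 16 of 76 genes lay above 0, where 50.1% of all genes did. The nearest were MRPS9 (difference -0.34, adjusted p = 0.0679, edgeR), MRPS6 (-0.34, adjusted p = 0.107) and MRPL49 (-0.36, adjusted p = 0.119), each with a positive estimate with TFAP2C siRNA and a negative one with Dox. Without the filter on low counts MRPS9 and MRPL49 passed. Across the 75 genes tested in both, 28 lay above 0 in both comparisons, 5 below in both, 39 above with TFAP2C siRNA and below with Dox, and 3 the reverse. The fold changes of the 2 comparisons, which share no library, had a Pearson r of 0.127 and a Spearman rho of 0.0693 across these genes, which are not independent replicates.

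The paralogs MRPS18A, MRPS18B and MRPS18C are alternative descendants of bacterial S18, of which MRPS18C takes its place in the small subunit and MRPS18A sits in the large subunit. In Dox their log2 fold changes were -0.03, -0.02 and -0.12, and with TFAP2C siRNA they were 0.11, 0.20 and 0.06. None passed the test, and MRPS18B is listed on a haplotype contig of chromosome 6 in the table of the Dox experiment. MRPL10 and MRPL12 form the stalk of the large subunit that recruits translation factors. MRPL10 had 93.2 and 99.8 CPM in DMSO and 96.0 and 101.8 in Dox, and MRPL12 had 62.8 and 60.8 and then 64.6 and 59.1, so the groups overlapped in both. With TFAP2C siRNA their log2 fold changes were 0.08 and 0.10, without passing.

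Other genes of mitochondrial translation were followed in 6 lists written from general knowledge. Their counts stand beside 0.74% of all genes called with TFAP2C siRNA and 9.98% in Dox (5.52% higher and 4.47% lower), and beside 12.6% and 22.7% at an unadjusted p under 0.05. With TFAP2C siRNA, 0 genes of any list passed edgeR's test, with medians between 0.05 and 0.11, and 1 to 3 genes of each had an unadjusted p under 0.05. In Dox, 0 passed among 6 mitochondrial ribosome proteins under other symbols (median log2 fold change 0.04, 2 at an unadjusted p under 0.05), 26 genes of mitochondrial ribosome assembly (median -0.02, 1 gene) and 20 translation factors (median 0.03, 4 genes). Of 19 genes of mitochondrial tRNA synthetases, GARS alone passed, from 416.5 ± 10.6 to 622.2 ± 8.53 CPM (SD, n = 2; log2 fold change 0.58, adjusted p = 9.04e-12, edgeR). Its enzyme charges glycine tRNA in the cytosol as well as in mitochondria. Of 12 genes of mitochondrial transcription and its regulators, MYC, a transcription factor of growth, rose by a log2 fold change of 0.23 (adjusted p = 0.000895, edgeR). Of 12 mitochondrial chaperones and proteases, 2 rose, HSPA9 (0.23), the matrix HSP70, and LONP1 (0.26), a matrix protease. In the same list 1 fell, HSPE1 (-0.23), the partner of the chaperonin HSP60. The proteins of the cytosolic ribosome, given for comparison, had a median of 0.05 in Dox, with 4 of 77 called higher and 0 lower.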

How the data were processed

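Single-end reads of polyadenylated RNA were aligned by the authors with TopHat2 to hg19 and counted on RefSeq genes with HTSeq 0.9.1, per the methods and the processing notes. They deposited raw counts per gene, not normalized, with a gene length, and the strand and overlap settings are not given in the sources used here. Positions in the TFAP2C siRNA table are those of GRCh38, unlike the methods, and its genes and gene lengths differ from those of the other table. The annotation behind it is not given in the sources used here, so each comparison was fitted within its own table. The tables were joined by symbol for the test of the difference between comparisons and for an alternative with all 8 libraries, where the build and annotation differ between the comparisons but not within them. Reads of overlapping genes cannot be told apart.

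With edgeR 4.0.16 in R 4.3.3, low genes were removed (filterByExpr), counts were scaled by TMM and groups were compared by the two-sided quasi-likelihood test, with Benjamini-Hochberg adjustment over all genes tested. CPM uses the scaled library sizes. An SE is the size of the log2 fold change divided by the root of F. The difference between comparisons was tested over the 21257 shared symbols. With 2 libraries a group the smallest exact permutation p is 0.333, so single values were not tested alone. Alternatives were other scalings, DESeq2 1.42.0, other filters, a replicate block, all 8 libraries together and each library left out. Code was tested on simulated data. The genes, lists and tests were chosen with earlier results of these data known. Genes named are those called, the 6 highest and lowest in fold change or level, the MRPS18 paralogs, the stalk, up to 4 called genes a list, and the targets.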

Additional observations from a re-analysis of the deposited data

How the results depend on the processing

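MRPS10 stayed called in every alternative run with Dox, and MRPL24 in all but the fit without DMSO replicate 2. With libraries scaled by size only, 2 genes of the family fell in Dox, MRPL27 joining MRPL49, and the family median was -0.0352 beside -0.0264 for all genes. In a fit of all 8 libraries 0 fell. Leaving out each library, which leaves a group of 1 assumed to vary like the others in the fit, 1 to 2 genes rose in Dox and 0 to 3 fell (0 without DMSO replicate 1 and 3 without Dox replicate 2, which added MRPL14 and MRPL44), with medians from -0.0201 to -0.014. With TFAP2C siRNA, 0 to 16 genes were called higher and 0 to 1 lower, with medians from 0.0373 to 0.135, and every call came from a fit without 1 of the TFAP2C siRNA libraries. For the difference between the comparisons, 2 were called lower without a filter on low counts, and 0 to 6 when each library was left out (6 without TFAP2C siRNA replicate 2, 2 without replicate 1).

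The replicate numbers did not pair the libraries, since deviations of same-numbered libraries had correlations of -0.224 and -0.013. With the number as a replicate block, 0 genes were called with TFAP2C siRNA (median 0.0856), 2 rose and 1 fell in Dox (median -0.00923), and 0 were called in the difference (median -0.1003). Over all genes, calls with TFAP2C siRNA went from 111 to 172 with the block, 398 without a filter, 271 with all 8 libraries, and 49 to 2825 when each was left out (49 without control siRNA replicate 1, 74 without control siRNA replicate 2, 537 without TFAP2C siRNA replicate 1 and 2825 without replicate 2). Calls in Dox went from 1336 to 673 with DESeq2, 696 with all 8 and 833 without DMSO replicate 2, and those of the difference from 313 to 173 with the block, 607 without a filter and 113 to 1554 when each library was left out. The cause of these changes was not tested.

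Genes named for their rank or role, none of them called in the full fits, changed sign. With TFAP2C siRNA and each library left out, log2 fold changes ran from -0.208 to 0.125 for MRPL42 (0.0337 without control siRNA replicate 1), -0.0753 to 0.00646 for MRPS5, -0.0647 to 0.198 for MRPS18C, -0.00933 to 0.16 for MRPL10 and -0.0331 to 0.223 for MRPL12. In Dox they ran from -0.0526 to 0.0232 for MRPS18B, -0.0126 to 0.0857 for MRPL10 and -0.0635 to 0.0646 for MRPL12. MRPL12 was also at -0.0253 with libraries scaled by size only, -8.033e-05 with at least 10 counts in every library and -0.000668 with the replicate block. Counts were too low to test MRPL53 in either comparison and MRPS24 in Dox, and low counts left wide intervals for MRPL38 in Dox and MRPS24 with TFAP2C siRNA.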
